A study of Homo sapiens with 24 samples.

Results

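The costimulatory and checkpoint genes of the immune synapse were examined for super-enhancers in OCI-Ly7 cells, a human germinal center B-cell-like diffuse large B-cell lymphoma line. The set held 10 genes, which were CD86, CD80, CD40, CD28, CTLA4, ICOS, ICOSLG, CD274, PDCD1LG2 and CD58, out of 19970 protein-coding genes annotated on chromosomes 1 to 22 and X. A super-enhancer was assigned to a gene when it overlapped the GENCODE version 44 gene body (hg38) extended by 50 kb on each side. The assignment is by position alone and does not show which gene a region acts on. By this rule 6 of the 2615 super-enhancers of the table belonged to the set, and 5 of the 10 genes had at least 1 of them, beside 30.7% of all protein-coding genes (6140 of 19970) by the same rule.

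The study profiled H3K27ac, H3K4me1 and H3K4me3 by CUT&RUN, an assay that releases and sequences the chromatin carrying a mark by tethering a nuclease to an antibody. The 24 samples formed 12 groups of 2 replicates, 1 for each of the 3 marks in 4 isogenic genotypes derived from OCI-Ly7 by CRISPR editing. WT were control clones left without an edit, C (C_hom_KI) carried a homozygous CREBBP knock-in mutation that inactivates its acetyltransferase domain, K (K_hom_KO) carried a homozygous KMT2D knockout, and CK (CK_hom_KI_KO) carried both lesions. The super-enhancers were called on the WT H3K27ac data alone, with the 2 libraries combined into a single value per region. The other 22 samples, in 11 groups, were not analysed here. There is therefore no spread between replicates, no test and no comparison of genotypes, and every value below describes these pooled WT libraries, which come from single-cell clones of a cell line. The read totals behind the combined values were not given with the table.

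Costimulatory and checkpoint proteins set how strongly a T cell answers an antigen shown to it. CD80 and CD86 on the antigen-presenting cell bind CD28, which activates the T cell, or CTLA4, which restrains it. ICOSLG binds ICOS, a costimulatory receptor. CD40 receives help from T cells, the ligands PD-L1 and PD-L2, encoded by CD274 and PDCD1LG2, engage the inhibitory receptor PD-1, and CD58 holds the synapse together by binding CD2. Germinal center B cells live on such contacts with T follicular helper cells. H3K27ac is found at enhancers and promoters in use. Stretches where many such sites crowd together with an unusually large summed signal are called super-enhancers, and that sum grows with length as well as with the density of the mark.

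The signal of a super-enhancer is the H3K27ac signal summed over its whole stitched length, in the units of the program that ranked the regions. The cutoff between typical enhancers and super-enhancers was 10617, and the signal over the whole table ran from 10621 to 170185 with a median of 19736. Each region was stitched from constituents, which are single H3K27ac sites closer together than 12.5 kb. In 2609 of the 2615 regions the summed constituent length was a whole multiple of 401 bp, so the sites are read here as windows of 401 bp. In 1304 of these 2609 regions there were more such windows than constituents counted, so the numbers of windows and of constituents are not the same.

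On the antigen-presenting side, 4 of 7 genes (57.1%) had a super-enhancer within 50 kb, namely CD86, CD40, CD274 and PDCD1LG2, and CD80, ICOSLG and CD58 had none. On the T-cell side, 1 of 3 genes (33.3%) did, namely CD28, and CTLA4 and ICOS had none. The share over all protein-coding genes by the same rule was 30.7%. With so few genes on each side these shares are counts and no more, and CD274 and PDCD1LG2 shared 1 region. Of the 6 regions, 2 were assigned to CD86, 2 to CD28, 1 to CD40, and 1 to CD274 and PDCD1LG2 together. The CD40 and PDCD1LG2 regions held the 5′ end of the gene model they were assigned to, and the others held no coding start. Over the table, 1140 of the 2609 regions made of whole 401 bp windows held the start of a coding gene.

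**Figure D1:**
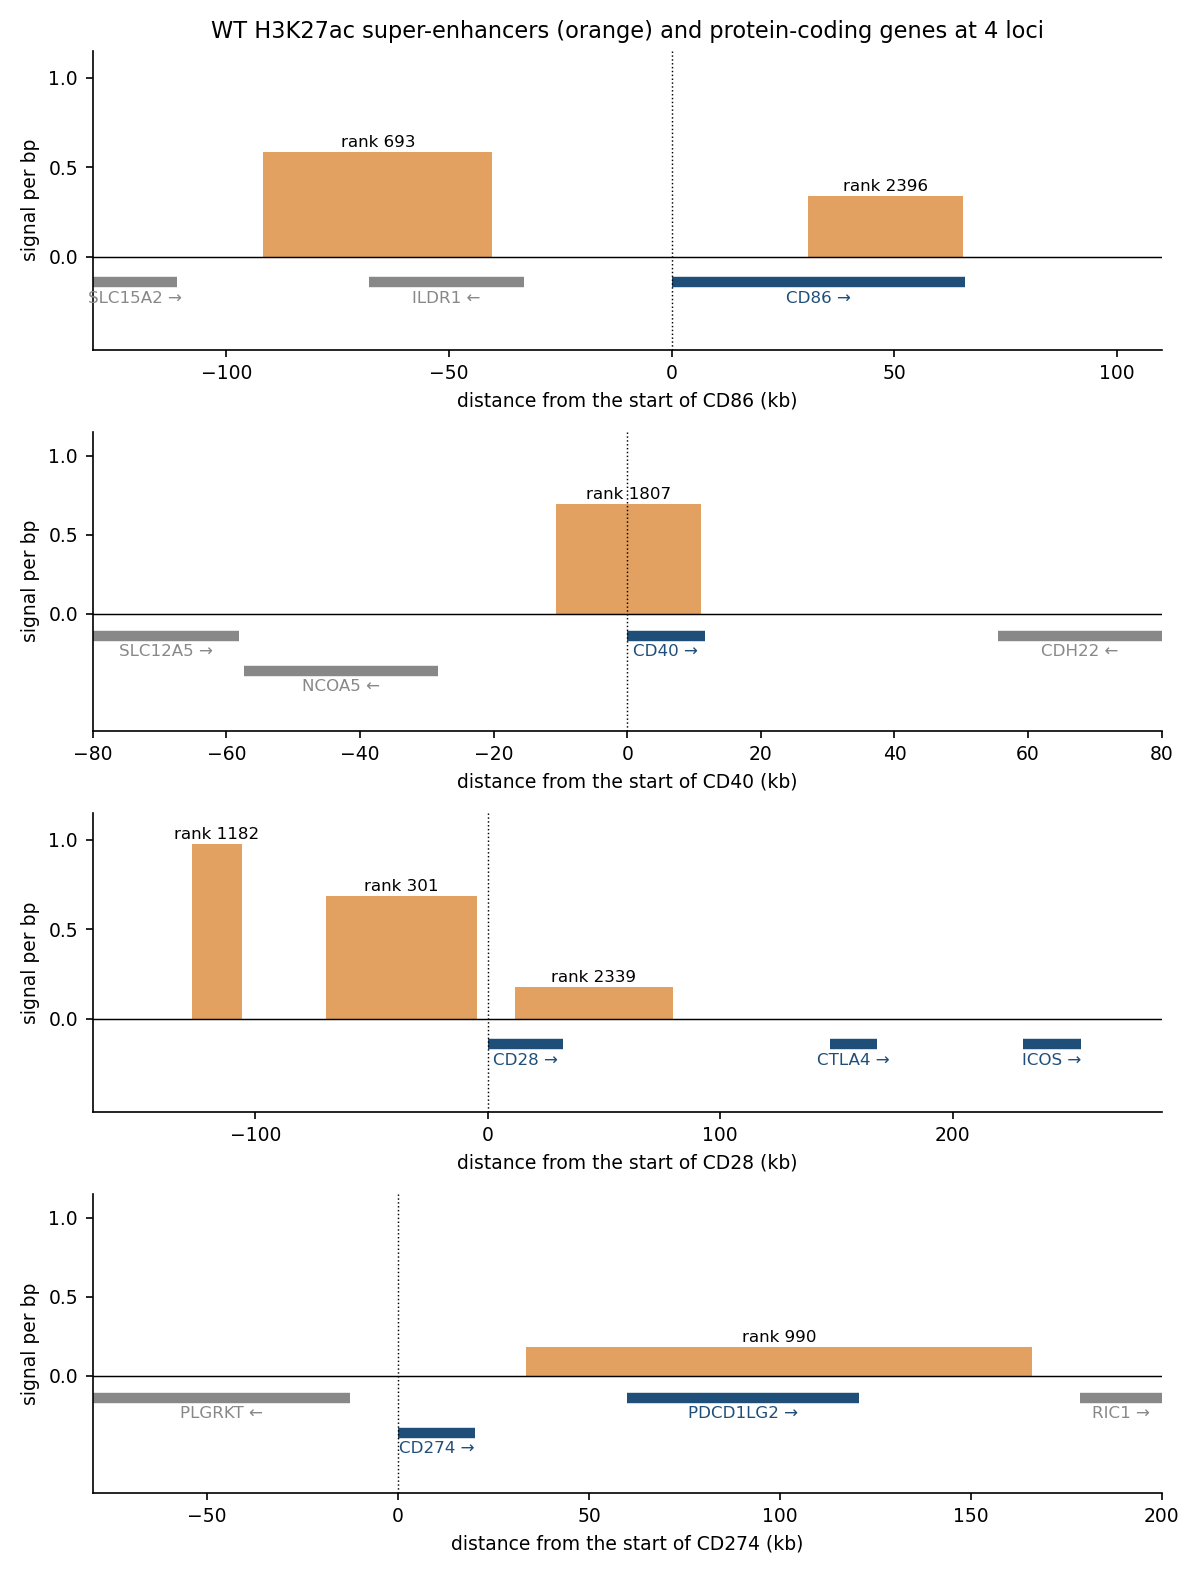
Super-enhancers (orange boxes, their height giving the signal per bp) and protein-coding genes (bars with an arrow for the strand) at the loci of CD86, CD40, CD28 with CTLA4 and ICOS, and CD274 with PDCD1LG2, with the distance from the named gene's start in kb on the horizontal axis. The starts of CD40 and PDCD1LG2 lie inside a box, the starts of CD86 and CD28 lie between 2 boxes, and the CTLA4 and ICOS bodies carry no box.

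The DNA of these loci is printed for 2 purposes. The promoters of CD86 and CD274 are shown because both starts lie outside every super-enhancer although a super-enhancer is nearby. The same is true of the CD28 promoter and of a second CD86 promoter. Those held no match to the motifs given below and are not printed. The windows that bound 5 of the 6 regions show sites where a region begins or ends. Promoters are the bases before the RefSeq start (GRCh38.p14), which were found for 8 of the 10 genes, with CD40 and PDCD1LG2 not among them. Capitals mark matches to 7 short motifs searched on both strands: GGGANTTTC (as in NF-κB sites), GAGGAAGT (ETS), GAAANNGAA (IRF), ATGCAAAT (octamer), TGANTCA (AP-1), TTCNNNGAA (STAT) and TGACGTCA (CREB). The CD86 promoter is at chr3:122055112-122055361 on the plus strand, and the CD274 promoter, at chr9:5450292-5450502 on the plus strand, is printed up to the GENCODE start.
CD86 promoter: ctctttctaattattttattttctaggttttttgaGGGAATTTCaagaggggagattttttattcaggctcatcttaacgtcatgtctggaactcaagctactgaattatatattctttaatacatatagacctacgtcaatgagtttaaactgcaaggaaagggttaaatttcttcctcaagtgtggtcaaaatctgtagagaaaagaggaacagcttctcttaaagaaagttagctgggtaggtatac
CD274 promoter: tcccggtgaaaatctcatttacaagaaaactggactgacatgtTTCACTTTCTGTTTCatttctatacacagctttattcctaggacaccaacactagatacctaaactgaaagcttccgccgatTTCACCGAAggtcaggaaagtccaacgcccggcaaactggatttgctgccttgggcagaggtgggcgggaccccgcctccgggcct

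The CD86 promoter held 1 match to GGGANTTTC, which begins 215 bases before the start, and 1.12% of all 34961 promoters hold this motif in their 250 bases. The CD274 promoter held 2 overlapping matches to GAAANNGAA, a motif in 6.88% of promoters, and 1 match to TTCNNNGAA, which 6.57% of promoters hold. Of the other 7 promoters of the set, which include a second CD86 promoter, the CTLA4 promoter held 1 match to GAAANNGAA and the others held no match to any of the 7 motifs. These are matches of letters and were not tested for binding. None of the 9 promoters lay inside a super-enhancer, but CD40 and PDCD1LG2, whose gene starts do, had no promoter among them. GC content was 34.0% in the CD86 promoter and 79.2% in the ICOSLG promoter, against a median of 58.4% over all promoters. All 250 bases of the ICOSLG promoter, and 164 of those of CD28, are annotated as untranslated region in GENCODE. They therefore lie inside the gene model used here.

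The central 121 bases of a boundary window are given next for 5 of the 6 regions, on the plus strand of hg38. The 5 windows are the last of the region upstream of CD86 (chr3:122014849-122014969, in an ILDR1 intron), the first of the region over CD86 (chr3:122086057-122086177, in a CD86 intron), the first of the region upstream of CD28 (chr2:203636948-203637068, between genes), the first of the region over CD28 (chr2:203718252-203718372, in a CD28 intron) and the first of the CD274 and PDCD1LG2 region (chr9:5484157-5484277, between genes).
Upstream of CD86, last: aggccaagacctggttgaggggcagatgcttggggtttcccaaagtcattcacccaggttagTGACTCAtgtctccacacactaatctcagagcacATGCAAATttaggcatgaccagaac
Over CD86, first: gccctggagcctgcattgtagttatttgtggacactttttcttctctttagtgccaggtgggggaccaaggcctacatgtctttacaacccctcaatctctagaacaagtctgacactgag
Upstream of CD28, first: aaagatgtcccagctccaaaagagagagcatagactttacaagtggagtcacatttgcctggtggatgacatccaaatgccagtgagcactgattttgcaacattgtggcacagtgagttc
Over CD28, first: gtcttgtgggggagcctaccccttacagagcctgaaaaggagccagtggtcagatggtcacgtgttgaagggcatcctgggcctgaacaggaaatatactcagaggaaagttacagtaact
CD274 and PDCD1LG2, first: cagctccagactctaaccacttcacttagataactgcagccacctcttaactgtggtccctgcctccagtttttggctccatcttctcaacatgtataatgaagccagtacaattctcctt

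The last window of the region upstream of CD86 held 1 match to TGANTCA and 1 to ATGCAAAT. Over the 5230 boundary windows of the table, 3.23% held the former and 0.669% the latter. The first window of the same region, which is not printed, held 1 match to GAAANNGAA, a motif in 3.38% of the boundary windows. The other 4 printed windows, all of them first windows, and the last windows of the other 5 regions, which are not printed, held no match. That says only that these letters are not in these bases.

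CD86, the B7 ligand that marks light zone germinal center B cells, had 2 super-enhancers on either side of its start. The gene (ENSG00000114013.16) lies at chr3:122055362-122121139 on the plus strand and is 65.8 kb long. The stronger region, at chr3:121963644-122015109, had a signal of 29963, which is 2.82 times the cutoff and rank 693 of 2615. It spanned 51.5 kb in 12 constituents and ended 40.3 kb before the CD86 start. This region overlapped ILDR1, a gene for a tight junction protein, and the ILDR1 start was closer to it than the CD86 start, at 7.14 kb. The weaker region, at chr3:122085917-122120689, lay wholly within CD86, where 92.4% of the sequence was intronic and 7.60% exonic. Its signal was 11673 at rank 2396, only 9.94% above the cutoff, over 34.8 kb and 11 constituents.

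The intragenic CD86 region began 30.6 kb after the gene start and covered 52.9% of the gene. Of the 7 protein-coding CD86 transcripts, 1 began inside it, and the second RefSeq CD86 promoter lay 8.13 kb from it. The upstream region had 2.57 times the signal of the intragenic one. Part of that was length, since it was 1.48 times as long, and per base pair the ratio was 1.73 (0.582 against 0.336 signal per bp). The gap of 70.8 kb between them held the CD86 start and no super-enhancer. A further region, at rank 1148 with a signal of 21619, lay 224 kb upstream of CD86 over IQCB1 and was outside the window.

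CD40, the receptor through which helper T cells activate B cells, was the only gene of the set with a single super-enhancer that reached about equally far to both sides of its start. The gene (ENSG00000101017.15) is at chr20:46118271-46129863 on the plus strand and is 11.6 kb long. The region, at chr20:46107595-46129269, ran from 10.7 kb before the start to 11.0 kb after it and covered 94.9% of the gene. Its bases were 23.2% exonic, 27.6% intronic and 49.3% outside coding genes. It was the shortest of the 6 regions, at 21.7 kb, with 6 constituents, and its signal of 15096 was 1.42 times the cutoff at rank 1807. Per base pair it was the densest of the 6, at 0.697, which is rank 336 by density. A region this short passes a cutoff on the sum only if it is dense, so its density rank is partly set by its length.

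The CD40 region changed place most between the rankings by sum and by density, from rank 1807 to rank 336. The start of NCOA5, a coactivator of nuclear receptors, lay 17.6 kb away, and SLC12A5 and CDH22 were the other coding genes within 50 kb. The closest other super-enhancers lay 135 kb upstream over PCIF1 and ZNF335, at a signal of 21054, and 200 kb downstream over SLC35C2 and ELMO2, at a signal of 22204. CD40 was also the only one of the 5 genes that lost its super-enhancer when regions had to exceed 1.5 times the cutoff, to stand in the upper part of the ranking by signal, or to have at least 10 constituents.

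CD274 and PDCD1LG2, the neighbouring genes for PD-L1 and PD-L2, shared 1 super-enhancer. CD274 (ENSG00000120217.14) lies at chr9:5450503-5470566 and PDCD1LG2 (ENSG00000197646.8) at chr9:5510531-5571282, both on the plus strand. The region, at chr9:5484017-5616605, had a signal of 24052, 2.27 times the cutoff and rank 990. It was the longest of the 6, at 133 kb, with 33 constituents. It covered the whole of PDCD1LG2 with its start, from 26.5 kb before the start to 106 kb after it, and began 13.5 kb beyond the 3′ end of CD274 and 33.5 kb from the CD274 start.

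The CD274 body therefore held no part of a super-enhancer, and the gene drops out when the window is set to 0 kb. The shared region was long and thin. Its density of 0.181 signal per bp was rank 2434 of 2615, and its 729 signal per constituent was rank 2257. Of its bases 54.2% were outside coding genes, 1.83% were exonic and the remainder intronic. Among other coding genes, the start of RIC1 was 12.4 kb from it and that of PLGRKT 46.1 kb. No other super-enhancer lay within 539 kb on the CD274 side or 1065 kb on the other.

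CD28, the costimulatory receptor of T cells, had the region with the highest signal of the set, although OCI-Ly7 is a B-cell line. The gene (ENSG00000178562.18) is at chr2:203706475-203738912 on the plus strand. The upstream region, at chr2:203636808-203701821, had a signal of 44417, which is 4.18 times the cutoff and rank 301, within the top 11.5% of the table. It spanned 65.0 kb in 25 constituents, lay entirely outside coding genes and ended 4.65 kb before the CD28 start, with a density of 0.683 signal per bp (rank 359). The next coding starts were those of RAPH1 at 101 kb, CTLA4 at 152 kb and ICOS at 235 kb. It overlapped 1 annotated non-coding gene, ENSG00000233031.

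The second CD28 region, at chr2:203718112-203786009, had a signal of 11991, 1.13 times the cutoff and rank 2339. It began 11.6 kb after the start, covered 64.1% of CD28 and continued past its 3′ end, so that 69.4% of its bases were outside coding genes. Although the regions were almost equally long, at 65.0 and 67.9 kb, the upstream one had 3.70 times the signal and 3.87 times the density (0.683 against 0.177 per bp). It also had more constituents, 25 against 10. The gap between them, which held the CD28 start, was 16.3 kb, slightly over the stitching distance. If regions less than 20 kb apart were joined, the pair would have a summed signal of 56408 and rank 264 of 2237. A further region outside the window, at chr2:203579159-203600711, lay 106 kb upstream of CD28 with a signal of 21048 and a density of 0.977.

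Sequence that occurs elsewhere in the genome was frequent at 1 edge of both CD28 regions. Of the 31-base words in the last window, 72.5% occurred more than once in hg38 for the upstream region and 65.5% for the region over CD28, and the first windows of both had 0%. Over the whole region the shares were 20.8% and 15.3%. The comparison with all super-enhancers used a separate estimate from 200 sampled positions per region. By that estimate 19.3% and 35.9% of them had a share at least as high. The region over CD28 also overlapped the pseudogenes KRT18P39 and NPM1P33 and the small RNA gene RNU6-474P. Whether such sequence had a part in the signal was not tested. The other 4 regions had shares of 4.65% to 11.3%.

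**Figure D2:**
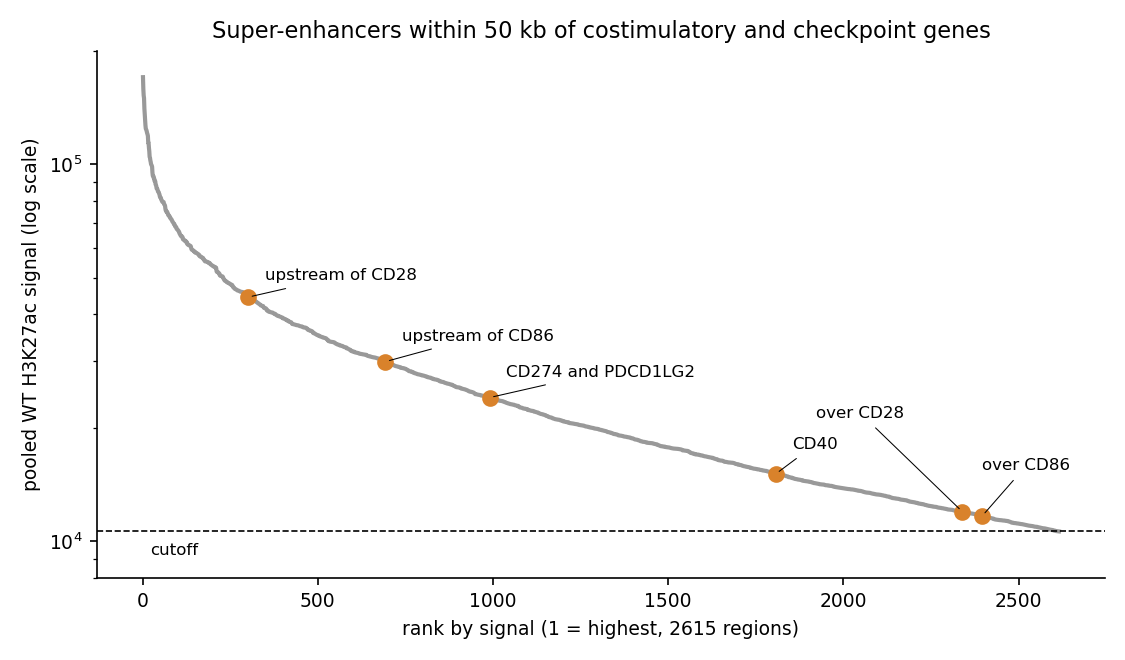
Pooled WT H3K27ac signal (log scale) of all 2615 super-enhancers against their rank, with the 6 regions near costimulatory and checkpoint genes marked and the cutoff drawn as a dashed line. The region upstream of CD28 stands at rank 301, and the regions over CD28 and over CD86 stand at ranks 2339 and 2396, close to the cutoff of 10617.

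CTLA4 and ICOS, the inhibitory and costimulatory relatives of CD28, stand downstream of it on the same strand and had no super-enhancer within 50 kb. CTLA4 (ENSG00000163599.18, chr2:203853888-203873965) was 67.9 kb from the region over CD28, and ICOS (ENSG00000163600.13, chr2:203936763-203961577) was 151 kb from it. These distances are ordinary, since 65.9% and 53.5% of all protein-coding genes lay at least as far from a super-enhancer. Beyond the region over CD28, the next one on the chromosome was 2260 kb away. Of the 2592 gaps between neighbouring super-enhancers, 11.9% were at least that long, and the median was 216 kb. No region spanned from CD28 to CTLA4 or ICOS.

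ICOSLG, the ligand of ICOS, is at chr21:44215382-44241446 on the minus strand (ENSG00000160223.18). Its nearest super-enhancer lay 93.6 kb upstream over CFAP410 and TRPM2, with a signal of 12543 (rank 2226), and 61.2% of coding genes were at least as far from one. A region with a larger summed signal, 61839 at rank 127 over AGPAT3 and TRAPPC10, lay 122 kb downstream. It was 251 kb long and not denser, at 0.2462 signal per bp against 0.2605 for the nearer region. Both were outside the 50 kb window.

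CD58, the adhesion ligand of CD2, is at chr1:116514534-116571039 on the minus strand (ENSG00000116815.16). Its nearest super-enhancer, at chr1:116218876-116352842, lay 162 kb beyond its 3′ end with a signal of 19171 (rank 1355), overlapped no coding gene, and was thin, at 0.143 signal per bp. On the other side, the next region was 27975 kb from the CD58 start. The gap that holds CD58 was rank 3 of 2592 in length and spans the centromere. Only 10.1 of its 28.2 Mb are bases other than N in hg38. It held 36 coding genes, among them CD2, the receptor of CD58.

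CD80, the other B7 ligand of CD28 and CTLA4, was by far the most distant of the 10 from a super-enhancer. The gene (ENSG00000121594.12) is at chr3:119524293-119559614 on the minus strand, and its nearest region, at a signal of 11988 over FBXO40, HCLS1 and GOLGB1, was 2063 kb away. Only 9.90% of protein-coding genes lay at least as far from one. CD80 stood in a gap of 13.5 Mb that was rank 21 of 2592 in length and held 78 coding genes. CD86, which lies on the same chromosome arm and binds the same receptors, had 2 regions within 50 kb.

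**Figure D3:**
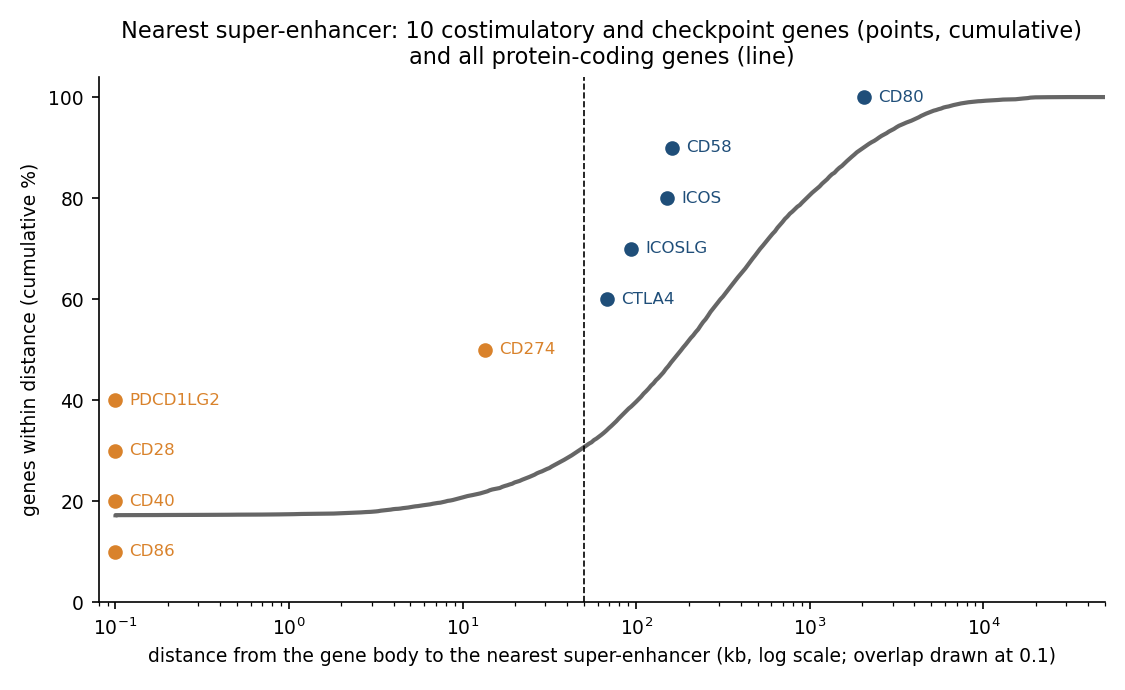
Cumulative share of protein-coding genes by distance from the gene body to the nearest super-enhancer (kb, log scale, overlap drawn at 0.1 kb) as a line, with the 10 genes as points at their own cumulative share and the 50 kb window as a dashed line. The 5 genes within 50 kb lie at 0 to 13.5 kb, the other 5 lie between 67.9 kb (CTLA4) and 2063 kb (CD80), and the median over all protein-coding genes is 182 kb.

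Between the genes inside the window and those outside it there was a gap in distance, from 13.5 kb for CD274 to 67.9 kb for CTLA4, so a window of 25 kb gave the same 5 genes. A window of 100 kb added CTLA4 and ICOSLG, for 7 genes beside 39.7% of all coding genes. The median distance to the nearest super-enhancer was 40.7 kb over the 10 genes and 182 kb over all coding genes. Longer genes offer more room for an overlap. With all coding genes cut into 10 equal bins by length, the share with a super-enhancer in the bin of each of the 10 genes ran from 28.9% for genes as long as CD40 to 36.2% for genes as long as CD86 and PDCD1LG2.

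As super-enhancers, the 6 regions had a median summed signal close to that of the table and were spread from rank 301 to rank 2396. Their signal had a median of 19574, against 19736 over all 2615, and ran from 11673 to 44417. The median length was 58.2 kb against 60.7 kb, and the median number of constituents was 11.5 against 16. Density was 0.459 signal per bp at the median against 0.343, with 3 of the 6 above the median of all regions. With a window of 0 kb or 100 kb the median density was 0.259 or 0.336, below 0.343. The upstream regions of CD28 and CD86 and the CD40 region formed the dense part, at 0.582 to 0.697 signal per bp, and the region of CD274 and PDCD1LG2 and the region over CD28 the thin part, at 0.181 and 0.177.

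The regions of the set were poor in GC. Their median was 41.5% against 45.7% over all regions, and only the CD40 region, at 48.3%, was above that. The CD40 region and the CD274 and PDCD1LG2 region had 1 and 2 more 401 bp windows than constituents, and the other 4 had none. Over the table, such extra windows were found in 89.6% of the regions that hold the start of a coding gene and in 19.2% of the others. The study's ranking left sites within 2500 bp of a transcription start out of the stitching.

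**Figure D4:**
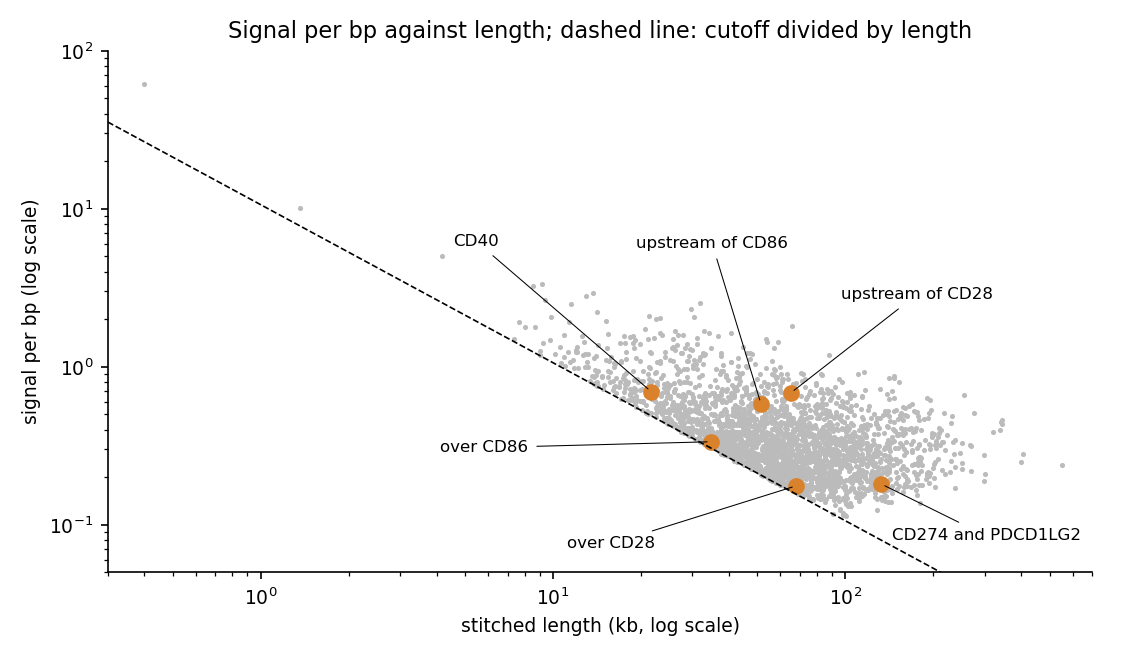
H3K27ac signal per bp against stitched length in kb for all 2615 super-enhancers, both on log scales, with the 6 regions marked and the dashed line giving the cutoff divided by length. The regions over CD86 and over CD28 lie just above the dashed line, and the CD40 region and the regions upstream of CD86 and CD28 lie at 0.582 to 0.697 signal per bp.

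Marker genes of cell types were looked up by the same rule, under which 30.7% of all protein-coding genes had a super-enhancer. Of 5 germinal center B-cell markers 4 had a super-enhancer within 50 kb, with LMO2 the exception. Of 7 T-cell markers 1 did (CD247), and of 5 myeloid markers 1 did (CSF1R). Among the germinal center markers only the body of MME was overlapped. Its region had a signal of 10796 at rank 2579, close to the cutoff of 10617. With so few markers these are counts, and the cell type was not tested. CD28 lay within 50 kb of a super-enhancer in cells where CD3D, CD3E, CD3G, CD4, CD8A and BCL11B had none within that distance. Contact of these regions with CD28 and expression of CD28 were not examined.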

How the data were processed

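H3K27ac, H3K4me1 and H3K4me3 CUT&RUN was carried out by the authors in OCI-Ly7 clones. Per the study's methods and the submitters' processing notes, reads were processed with nf-core cutandrun version 2.0 (hg38), each genotype had its own IgG control, depth was normalised to the reads at promoters, and DiffBind 3.6.1 was used. Super-enhancers were called with ROSE on WT H3K27ac, without sites within 2500 bp of transcription starts. The deposited table gives for each of 2615 regions its position, its number and summed length of constituents, and a summed H3K27ac signal of the combined WT replicates, as well as the rank. The signal values deposited by the authors are not counts and carry no replicate error. The methods state an approximate sequencing depth per sample, but the read totals behind the combined values were not given with the table. No interval was computed.

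Regions were matched to GENCODE version 44 gene bodies extended by 50 kb, with Python 3.11.15, pandas 2.3.3 and numpy 2.4.6. The distance function was tested on simulated data. Chromosome Y was left out, and a B-cell marker list and some sequence are not reported here. Of the boundary windows, 5 are printed. Signal was divided by stitched length for density, and promoters came from RefSeq (GRCh38.p14). All 10 genes were named, and of 32 other immune synapse genes those with a region, and coding genes that a region overlaps. Genes farther away were named by position after their values were seen. The genes, lists and motifs were chosen with earlier results of these data known. Alternatives for the window, the set of regions, the start and the denominator were tried. Those with RefSeq gene bodies, a 200 kb window and regions joined at gaps under 20 kb were chosen after seeing the data.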

Additional observations from a re-analysis of the deposited data

How the results depend on the processing

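The number of the 10 genes with a super-enhancer was 5, and it ranged from 4 to 7 over all alternatives except a window of 200 kb (added after seeing the data), which gave 9 of 10 beside 51.7% of all coding genes. It was 4 with a window of 0 kb (without CD274, beside 17.3%), in the upper part of the ranking by signal (beside 16.8% of all coding genes), above 1.5 times the cutoff (21.4%) and with at least 10 constituents (26.0%), each of these 3 without CD40. It was 5 with a window of 25 kb (25.05%), around the transcription start (25.9%), above the cutoff by more than 5% (29.5%) and with RefSeq gene bodies (30.4%), and 7 with a window of 100 kb (39.7%). Of the other 32 immune synapse genes 8 had one (25%, beside 30.7% of all coding genes). With a window of 0 kb 4 did (12.5%, beside 17.3%), with 25 kb 8 (25%, beside 25.05%) and with 100 kb 11 (34.4%, beside 39.7%). In the upper part of the ranking 6 did (18.8%, beside 16.8%), and with RefSeq gene bodies 9 (28.1%, beside 30.4%). The median rank of the 6 regions by signal was 1398.5, where 1308 is the middle of the table. It became 930 by density, 1116 by signal per constituent, 2073 for the 4 regions at 0 kb, 1807 for the 7 regions at 100 kb and 984 after joining regions less than 20 kb apart (added after seeing the data). The median density was 0.459 per bp against 0.343 over all regions. It became 0.259 at 0 kb and 0.336 at 100 kb, both below 0.343, so the direction depended on the window. Divided by the summed constituent length, which is another scale, the median was 3.71 against 3.03 over all regions. Regions with a start inside were found for 2 genes, or 3 with the start of any coding transcript, which adds CD86. Of the 24 settings tried over 5 results, 14 left the result within its bounds and 10 moved it. All 14 concerned the gene counts or the starts inside regions. Every alternative for the median rank and for the median density moved the result.

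No paired analysis was possible because the table gives 1 value for the combined replicates. For the same reason no replicate was left out in turn. The regions over CD86 and over CD28 stand 9.94% and 12.9% above the cutoff, and 328 of the 2615 regions lie within 15% of it.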

Other observations

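Beyond the 10 genes, 8 of 32 other genes of the immune synapse had a super-enhancer within 50 kb, beside 30.7% of all coding genes. The adhesion genes, which hold the contact together, had 4 of 7. These were CD48 with 2 regions, the stronger at a signal of 53444 (rank 204), ICAM2 with 2 regions and 21755 for the stronger, ICAM3 with 13811 and ICAM1 with 11707, close to the cutoff. Of the TNF family costimulators 2 of 8 did, namely CD70 at 32792 and its receptor CD27 at 30123, the latter dense at 1.25 signal per bp. Of the other genes of the CD28 and B7 family 1 of 7 did, VSIR, which encodes VISTA, at a signal of 58279 (rank 151). Of the other checkpoints 1 of 10 did, CD47, the "don't eat me" signal, at 24368.

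The super-enhancer of CD47 was the left boundary of the 13.5 Mb gap that holds CD80. The same gap held 5 of the 32 other genes, HHLA2, BTLA, TIGIT, CD96 and CD200. The 28.2 Mb gap with CD58 also held VTCN1, another B7 family gene. Of the 2592 gaps, 13 held more coding genes than the 78 in the CD80 gap. These are positions in a single table and were not tested.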
